A study of Neogale vison with 6 samples.

Results

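The genes described here encode the enzymes that attach isoprenoid lipids to proteins and finish the modified ends. They were taken by gene symbol from the table of read counts, as a list of 10 symbols. All 10 were found, each in 1 row of the 24526 genes of the table, and all 10 had enough reads to be among the 12148 genes tested. RNA was sequenced from Mv1Lu cells, a line from mink lung, as 3 libraries of untreated cells (control) and 3 libraries of cells subjected to cholesterol depletion (CD). For CD, the cells were kept for 16 h with lovastatin, a statin that inhibits cholesterol synthesis, and with mevalonate, a precursor of sterols and isoprenoids, each at 50 μM, in serum freed of lipoproteins (LPDS, 10%). The labels describe the control cells as untreated, so that the statin, the mevalonate and the change of serum cannot be told apart. According to the study's methods, mevalonate was added in an amount meant to leave enough precursor for farnesylation and geranylgeranylation.

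Prenylation joins a farnesyl or a geranylgeranyl group, both made from mevalonate, to a cysteine near the end of a protein and lets it bind to membranes. GGPS1 makes geranylgeranyl diphosphate (GGPP) from farnesyl diphosphate (FPP). Farnesyltransferase (FNTA with FNTB) and geranylgeranyl transferase I (GGTase I, FNTA with PGGT1B) share their α subunit and act on proteins that end in a CAAX box, a cysteine followed by a pair of mostly aliphatic residues and a final residue. Rab GTPases are instead modified by RABGGTA with RABGGTB after an escort protein, CHM, has presented them. On CAAX proteins, RCE1 or ZMPSTE24 then removes the last residues, and ICMT methylates the prenylated cysteine. Statins lower the supply of both lipids, and loss of prenylation of small GTPases is a well-known effect of these drugs.

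The libraries held between 13473820 and 18633764 reads counted on genes. Reads that were unmapped, multimapped or not assigned to a gene made up 29.3% to 47.2% of the reads of a library. The spread between libraries was larger in CD than in control cells, with a biological coefficient of variation of 0.214 against 0.0849. Among the CD libraries, replicate 3 lay farthest from the others, with a median log2 distance of 0.32 over the tested genes, against 0.27 and 0.17 for CD replicates 1 and 2. It is therefore left out beside the results that rest on it. Nothing in the labels says that the libraries came from separate cultures, so that the p-values measure the spread between these libraries. Of the epithelial markers, KRT19 fell from 936 ± 66.9 CPM in control to 458 ± 77.1 CPM with CD (SD, n = 3 each), which was -1.03 on the log2 scale (adjusted p = 2.74e-04, edgeR). CDH1 had 8, EPCAM 7 and CLDN7 4 counts over the 3 control libraries and 18, 2 and 1 over the CD libraries. KRT8 and KRT18, also on the epithelial list, were not found by symbol. Of the lung markers, SFTPC and SFTPB had 0 counts in every library, NKX2-1 had 23 counts over the control and 9 over the CD libraries, and FOXJ1 had 11 and 12. SCGB1A1, the only lung marker with enough reads to be tested, had 64 and 28 counts and was called lower (log2 fold change -1.21, adjusted p = 0.0125, edgeR). The summed level of the endothelial markers was 206 to 221 CPM in control and 75.9 to 123.8 CPM in CD cells, nearly all of it TEK. Within that list VWF went the other way, from 5 to 56 counts over the libraries of a group (log2 fold change 3.38, adjusted p = 8.82e-04, edgeR), and PECAM1 had 0 counts in control and 11 in CD cells, and CDH5 0 and 1. That of the fibroblast markers, mostly COL1A2, was 220.7 to 267.5 and 155 to 197 CPM, while PDGFRA had 138 and 137 counts and DCN 3 and 15. That of the leukocyte markers, nearly all CD68, was 5.13 to 5.62 and 16.9 to 22.4 CPM, with LYZ at 0 and PTPRC at 1 count in all. CD3E, also on the leukocyte list, was not found by symbol. The part of these shifts in the results was not tested.

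Of the 10 genes, 2 were higher (GGPS1 and FNTA) and 3 were lower (FNTB, RABGGTA and ICMT) in CD cells. A gene was called where its adjusted p was under 0.05 (quasi-likelihood test in edgeR, with Benjamini-Hochberg adjustment over every gene tested). These 5 were also the genes whose CPM (counts scaled to library size with TMM factors) did not overlap between the groups. The other 5 genes (PGGT1B, RABGGTB, CHM, RCE1 and ZMPSTE24) were not called. Over all tested genes 47.7% were called, 24.8% higher and 22.9% lower, and the groups did not overlap for 58.0%, so that the share of called genes among the 10 was near that of the whole table. Their median log2 fold change was -0.15, against 0.057 over all genes tested. The changes ran from -0.96 (ICMT) to 0.78 (FNTA) on the log2 scale. In bulk RNA, fewer cells with a transcript and less of it per cell cannot be told apart.

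**Figure D1:**
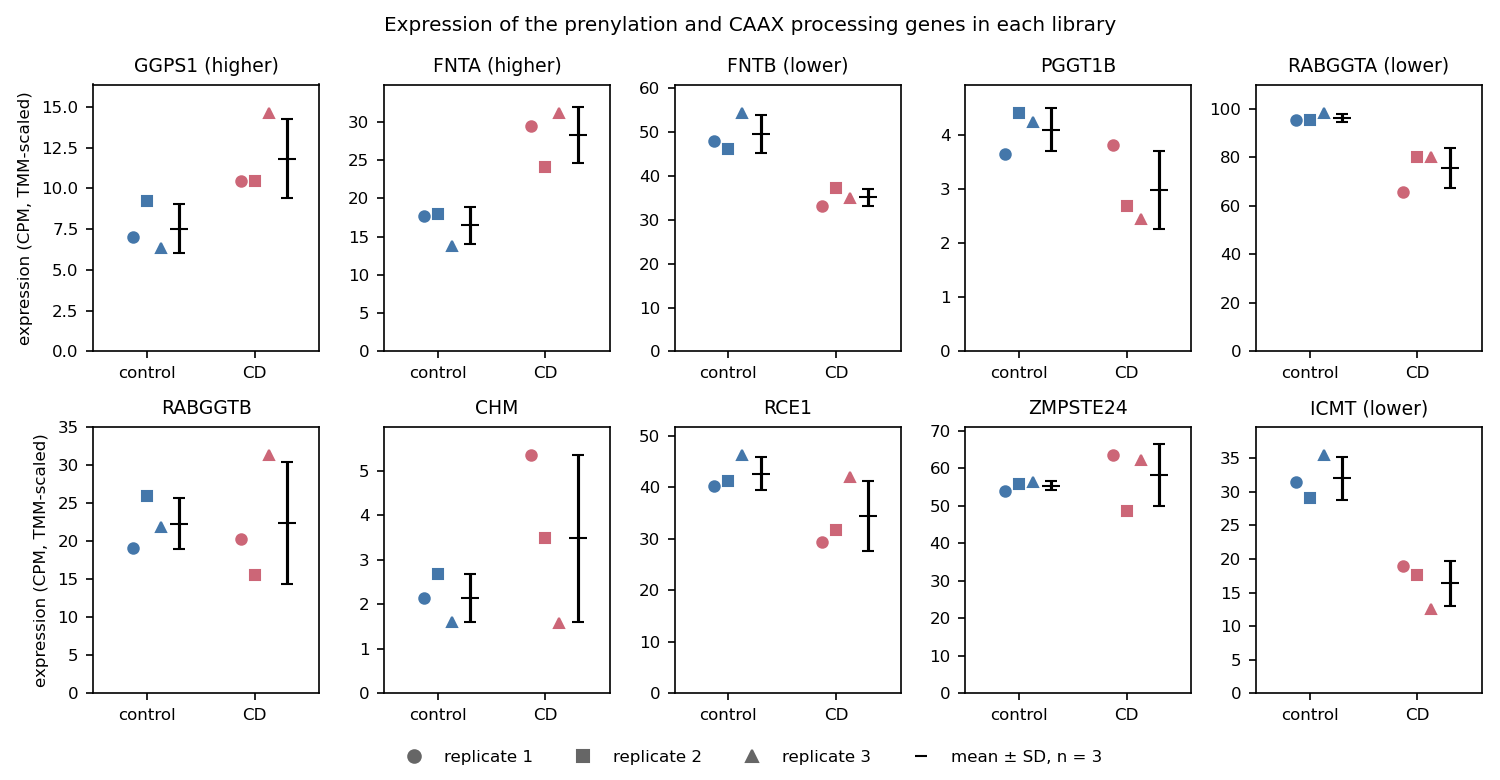
Expression in CPM (y axis, from 0, a scale of its own for each gene) of the 10 genes in the 3 control (blue) and 3 CD (red) libraries, with symbols for the replicates and the mean ± SD beside them. FNTA and GGPS1 lie higher in every CD library and FNTB, RABGGTA and ICMT lower, whereas CHM in CD runs from 1.59 to 5.35 CPM.

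GGPS1 (ENSNVIG00000007231), at the branch that leads to geranylgeranylation, was at 7.02, 9.25 and 6.34 CPM in control replicates 1, 2 and 3, and at 10.5, 10.4 and 14.6 CPM in CD replicates 1, 2 and 3. The CD values all exceeded those of the control, and CD replicate 3 was the highest. GGPS1 rose from 7.54 ± 1.52 to 11.8 ± 2.42 CPM (SD, n = 3 each), and its log2 fold change was 0.65 (standard error 0.22, adjusted p = 0.0316, edgeR). The call was lost without control replicate 1 or 3 or CD replicate 2 (adjusted p = 0.11, 0.14 and 0.0550, edgeR), and without CD replicate 3 the log2 fold change was 0.44. Where the call was lost, 36.3%, 35.9% and 40.95% of all tested genes were called, beside 47.7% with all libraries.

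FNTA (ENSNVIG00000008432), the α subunit that farnesyltransferase and GGTase I have in common, was at 17.7, 17.9 and 13.7 CPM in control cells and at 29.4, 24.1 and 31.1 CPM in CD cells. The groups were well separated, with the lowest CD library above the highest control library by more than the SD of either group. The means were 16.5 ± 2.37 and 28.2 ± 3.66 CPM (SD, n = 3 each), which is 1.72-fold (log2 fold change 0.78, standard error 0.17, adjusted p = 0.00371, edgeR). FNTA was called in all 14 alternative analyses, with a log2 fold change between 0.66 and 0.85.

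Of the β subunits, which bind the lipid and the CAAX protein, FNTB was called lower and PGGT1B was not called. FNTB (ENSNVIG00000008634), the β subunit of farnesyltransferase, was at 48.1, 46.2 and 54.4 CPM in control and at 33.3, 37.2 and 35.0 CPM in CD cells. All CD libraries lay below all control libraries and close to each other. FNTB fell from 49.6 ± 4.29 to 35.2 ± 2.0 CPM (SD, n = 3 each), and its log2 fold change was -0.50 (standard error 0.13, adjusted p = 0.00866, edgeR). This call was lost only without control replicate 3 (adjusted p = 0.0540, edgeR), where 35.9% of all tested genes were called.

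PGGT1B (ENSNVIG00000008558), the β subunit of GGTase I, had few reads, 51, 61 and 77 in control cells and 62, 44 and 34 in CD cells. This corresponds to 3.65, 4.41 and 4.24 CPM in control and 3.81, 2.7 and 2.45 CPM in CD cells, so that CD replicate 1 lay within the range of the control. The log2 fold change was -0.45 with a 95% interval of -0.97 to 0.064 (adjusted p = 0.13, edgeR), a range that includes no change and a decrease as large as that of ICMT. Without CD replicate 1, PGGT1B was called lower (log2 fold change -0.66, adjusted p = 0.0334, edgeR). It was not called in the other 13 of the 14 alternative analyses. Without CD replicate 3, the log2 fold change was -0.37 (adjusted p = 0.186, edgeR).

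Because the subunits work as pairs, their counts were also compared within each library, which does not depend on how the libraries are scaled. For 7 pairs of genes, the log2 ratio of counts was compared between the groups with a two-sided exact permutation test, which cannot give a p below 0.1 with 3 libraries against 3. Gene lengths were not at hand, so the size of a ratio does not say which transcript is more abundant, and only its change is read. For each read of FNTA, the control libraries held 2.72, 2.58 and 3.96 reads of FNTB, and the CD libraries 1.13, 1.55 and 1.13. The ratio of FNTB to FNTA was lower in every CD library than in every control library, by 1.27 on the log2 scale or 2.42-fold (exact permutation p = 0.1, 0.175 after adjustment over the 7 pairs). This separation and its p were fixed by the values above, since FNTA was higher and FNTB lower in every CD library. The ratio therefore adds the size of the difference and no separate test. When single libraries were omitted, the difference stayed between -1.43 and -1.08.

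The ratio of PGGT1B to FNTA was also lower in the CD libraries, with 0.207, 0.246 and 0.309 reads of PGGT1B for each read of FNTA in control and 0.129, 0.112 and 0.0787 in CD cells. The groups did not overlap, and the difference was -1.26 on the log2 scale (exact permutation p = 0.1, 0.175 after adjustment). Between the β subunits, the ratio of FNTB to PGGT1B overlapped between the groups, with 13.2, 10.5 and 12.8 in control and 8.73, 13.8 and 14.3 in CD cells. Its difference was -0.013 on the log2 scale (exact permutation p = 1), with an SD of 0.18 among control and 0.40 among CD libraries.

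**Figure D2:**
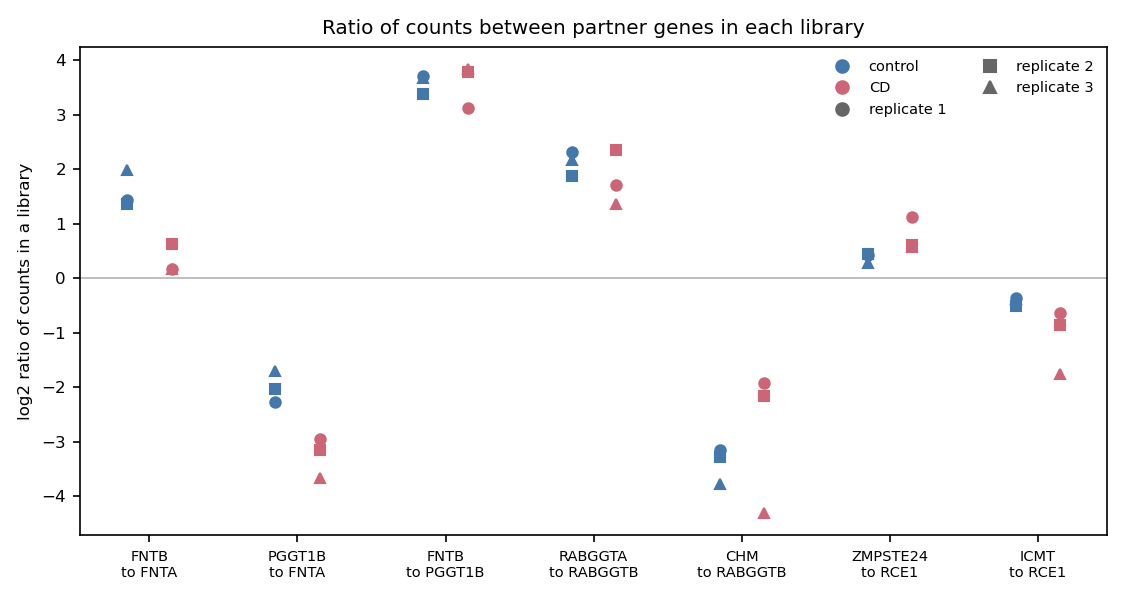
Log2 ratio of the counts of 2 genes within each library (y axis) for 7 pairs of genes (x axis), in control (blue) and CD (red) libraries. The ratios of FNTB and PGGT1B to FNTA are lower in all CD libraries, while the ratio of CHM to RABGGTB spans from 0.0507 to 0.264 among the CD libraries.

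Of the genes that prenylate Rab proteins, 1 of 3 was called. RABGGTA (ENSNVIG00000000745), the α subunit of the Rab geranylgeranyl transferase, was at 95.5, 95.3 and 98.2 CPM in control and at 65.9, 80.2 and 80.3 CPM in CD cells. The control libraries were nearly equal, and CD replicate 1 was the lowest. RABGGTA fell from 96.3 ± 1.62 to 75.4 ± 8.28 CPM (SD, n = 3 each), and its log2 fold change was -0.35 (standard error 0.12, adjusted p = 0.0326, edgeR). Among the omissions of single libraries, the call was lost without control replicate 1, 2 or 3 (adjusted p = 0.0989, 0.0818 and 0.11, edgeR) and without CD replicate 1, where the log2 fold change was -0.25 (adjusted p = 0.0727, edgeR). The log2 fold change without control replicate 1, 2 or 3 was -0.362, -0.365 and -0.341. In those analyses 36.3%, 38.6% and 35.9% of all tested genes were called, beside 47.7% with all libraries.

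RABGGTB (ENSNVIG00000010334), the catalytic β subunit, was at 19.1, 25.9 and 21.8 CPM in control and at 20.2, 15.6 and 31.3 CPM in CD cells. CD replicates 2 and 3 were the lowest and the highest of the 6 libraries. The log2 fold change was 0.0027 with a 95% interval of -0.54 to 0.54 (adjusted p = 0.99, edgeR), which spans 0.689-fold to 1.46-fold. Without CD replicate 3, the log2 fold change was -0.35 (adjusted p = 0.0536, edgeR). The RefSeq annotation of another mink assembly, ASM_NN_V1, places 3 small nucleolar RNA genes within this gene. Their part in its counts was not tested. The ratio of RABGGTA to RABGGTB overlapped between the groups, with 4.99, 3.68 and 4.50 in control and 3.26, 5.15 and 2.57 in CD cells (exact permutation p = 0.5, 0.58 after adjustment over the 7 pairs).

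CHM (ENSNVIG00000019925), the Rab escort protein, had 30, 37 and 29 counts in control cells and 87, 57 and 22 counts in CD cells. This gave 2.15, 2.67 and 1.6 CPM in control and 5.35, 3.50 and 1.59 CPM in CD cells. CD replicates 1 and 2 lay above every control library, and CD replicate 3 lay at the lower edge of the control range. The exact 95% Poisson intervals, which cover counting error only, were 4.28 to 6.60 CPM for CD replicate 1 and 0.993 to 2.40 CPM for CD replicate 3, so that these libraries differed by more than counting error. The log2 fold change was 0.72 with a 95% interval of -0.16 to 1.61 (adjusted p = 0.16, edgeR). Without CD replicate 3, CHM was called higher, with a log2 fold change of 1.03 (adjusted p = 6.14e-04, edgeR), and without CD replicate 1 the log2 fold change was 0.29 (adjusted p = 0.52, edgeR). The same annotation places 1 pseudogene within CHM, and its part in the counts was not tested.

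A relative of CHM and a relative of RABGGTA were also measured. CHML, the other Rab escort protein, was at 6.51, 2.45 and 2.16 CPM in CD replicates 1, 2 and 3, against 3.10 ± 0.145 CPM in control cells (SD, n = 3). PTAR1, an α subunit that pairs with RABGGTB in a further prenyltransferase, was at 3.63, 1.96 and 1.08 CPM in CD replicates 1, 2 and 3, against 1.92 ± 0.483 CPM in control cells. Neither was called (log2 fold changes 0.27 and 0.22, adjusted p = 0.60 and 0.67, edgeR). Of the 10 genes, 3 were higher in CD replicate 1 than in 2 and higher in 2 than in 3 (CHM, PGGT1B and ICMT), an order found for 27.4% of all tested genes.

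The proteases that cut CAAX proteins after prenylation were not called, unlike the methyltransferase that follows them. RCE1 (ENSNVIG00000013666), which cuts most CAAX proteins, was at 40.3, 41.3 and 46.3 CPM in control and at 29.3, 31.8 and 42.1 CPM in CD cells. CD replicates 1 and 2 lay below the control range, and CD replicate 3 lay inside it. The log2 fold change was -0.31 with a 95% interval of -0.66 to 0.041 (adjusted p = 0.13, edgeR). Without CD replicate 3, RCE1 was called lower (log2 fold change -0.52, adjusted p = 5.13e-04, edgeR). Omitting CD replicate 1 instead gave -0.20 (adjusted p = 0.32, edgeR).

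ZMPSTE24 (ENSNVIG00000015278), which also matures prelamin A, was at 54.0, 55.9 and 56.4 CPM in control and at 63.6, 48.8 and 62.3 CPM in CD cells. The control libraries lay within the range of the CD libraries. The log2 fold change was 0.070 with a 95% interval of -0.23 to 0.37 (adjusted p = 0.69, edgeR), which leaves room for an increase of up to 1.29-fold. Its main substrate gene, LMNA, was not called either (log2 fold change 0.098, adjusted p = 0.57, edgeR). A small nucleolar RNA gene lies within ZMPSTE24 in the RefSeq annotation of ASM_NN_V1, and its part in the counts was not tested. The ratio of ZMPSTE24 to RCE1 was 1.34, 1.36 and 1.22 in control and 2.17, 1.54 and 1.48 in CD cells. The CD ratios all exceeded the control ratios, with a difference of 0.39 on the log2 scale (exact permutation p = 0.1, 0.175 after adjustment over the 7 pairs). The difference was 0.21 without CD replicate 1.

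ICMT (ENSNVIG00000005063), the only enzyme known to methylate prenylated CAAX proteins, had the largest change of the 10 genes. It was at 31.4, 29.1 and 35.4 CPM in control and at 18.9, 17.6 and 12.5 CPM in CD cells. Every CD library lay well below every control library, and CD replicate 3 was the lowest. ICMT fell from 32.0 ± 3.22 to 16.4 ± 3.38 CPM (SD, n = 3 each), and its log2 fold change was -0.96 (standard error 0.18, adjusted p = 0.00157, edgeR), and 10.2% of the tested genes had a log2 fold change as low or lower. It was called in all 14 alternative analyses, with a log2 fold change between -1.07 and -0.84. Relative to RCE1, which acts just before it, ICMT had 0.778, 0.704 and 0.766 reads for each read of RCE1 in control and 0.646, 0.554 and 0.298 in CD cells. The groups did not overlap (difference -0.66 on the log2 scale, exact permutation p = 0.1, 0.175 after adjustment over the 7 pairs), and without CD replicate 3 the difference was -0.32.

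**Figure D3:**
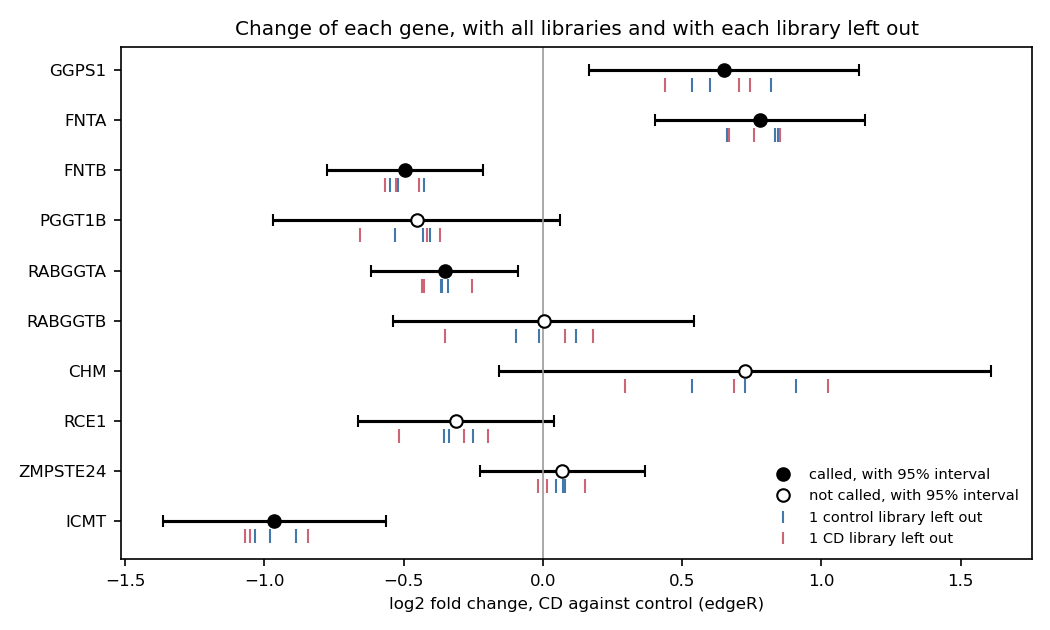
Log2 fold change of CD against control (x axis) for each gene (y axis), with its 95% interval from edgeR, filled where called, and below it the values with 1 control (blue) or 1 CD (red) library left out. FNTA stays between 0.66 and 0.85 and ICMT between -1.07 and -0.84, whereas CHM moves between 0.29 and 1.03.

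The coefficient of variation was larger in CD than in control cells for 8 of the 10 genes (FNTA and FNTB were the exceptions) and for 76.5% of all tested genes. It reached 54.1% for CHM and 36.0% for RABGGTB in CD cells, against 25.2% and 15.2% in control cells. CD replicate 3 was the highest CD library for 5 of the 10 genes and the lowest for 3, beside 40.1% and 41.0% of all tested genes. Without it, 7 of the 10 genes were called, 3 higher and 4 lower, beside 58.6% of all genes tested in that analysis.

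The 10 genes were then set beside genes that supply or use prenyl groups, in lists written from general knowledge. Of the genes that lead from acetyl-CoA to FPP, 7 were tested, of which 6 rose and none fell (1 was called lower without CD replicate 3). Among them were HMGCS1 and IDI1 (log2 fold changes 3.43 and 2.10). FDPS, which makes the FPP that GGPS1 and farnesyltransferase use, rose by 1.39, and PMVK was not called (-0.063, adjusted p = 0.78, edgeR). The median of this list was 1.61, beside 0.65 for GGPS1, the next enzyme on the way to GGPP.

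Of the 6 tested enzymes that draw on FPP or GGPP for other products, 1 rose and 3 fell (2 were called higher and 4 lower without CD replicate 3). FDFT1, which commits FPP to sterols, rose by 2.17 on the log2 scale. Among the genes that fell were DHDDS, a subunit of the enzyme that makes dolichol precursors (-1.36), and PDSS1, a subunit of the enzyme that makes the side chain of coenzyme Q (-1.17). NUS1 and PDSS2, their respective partners, were not called (0.40 and -0.39).

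The substrates of the enzymes were divided by the lipid they carry. Of 12 tested genes for geranylgeranylated CAAX proteins, 9 rose and none fell, with a median log2 fold change of 0.85. RHOB, a small GTPase that can carry either lipid, was at 78.7, 76.0 and 88.0 CPM in control and at 1419, 1512 and 1315 CPM in CD cells, an increase of 4.13 on the log2 scale (standard error 0.13, adjusted p = 7.93e-08, edgeR). RHOQ and RHOC followed, with 2.83 and 2.08. RHOQ is also described as a farnesylated protein, so that its place in this list is uncertain. RAC1, RAC3 and GNG2 were not called (0.14, 0.52 and -0.15).

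Of 14 tested genes for farnesylated proteins, 4 rose and 5 fell, with a median of 0.11. Of the 5, PTP4A3 lost its call in 8 of the 14 alternative analyses (log2 fold change -0.57, adjusted p = 0.0317, edgeR). The 3 largest increases were those of RAP2A (1.37), PTP4A1 (1.24) and RND3 (1.21). The 3 largest decreases were those of LMNB1, a B-type lamin (-2.73), and of CENPF and CENPE, kinetochore proteins of dividing cells (-2.02 and -1.94). Of 16 tested Rab genes, 7 rose and 1 fell, with a median of 0.39. RAB6A (1.10), RAB5A (0.96) and RAB11A (0.87) had the largest increases, and RAB8A was the one that fell (-0.41, adjusted p = 0.0364, edgeR), a call lost in 5 of the 14 alternative analyses. These counts stand beside the 24.8% higher and 22.9% lower over all tested genes, and no list was tested as a set. Within the lists, 15 symbols of 84 were not found in the table and were not analysed here, RHOA and RAB1A among them.

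**Figure D4:**
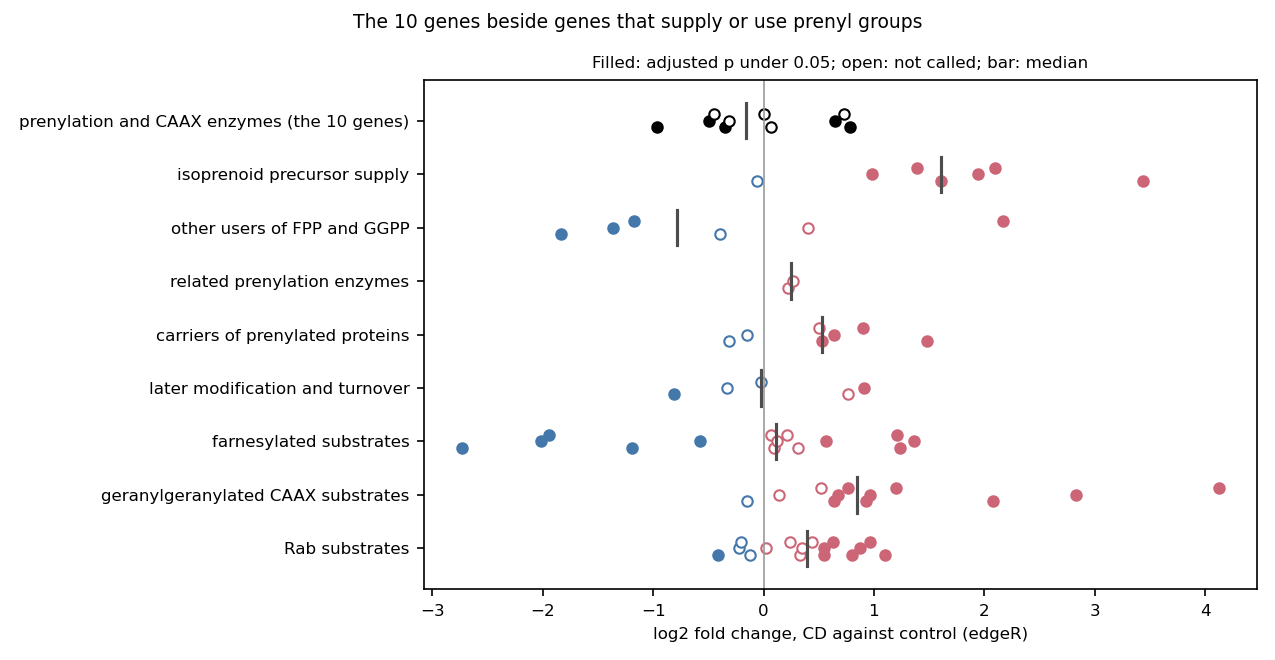
Log2 fold change of CD against control (x axis) for the 10 genes (black) and for each tested gene of 8 lists (y axis), filled where called, with a bar at the median. The medians are 1.61 for the precursor enzymes and 0.85 for geranylgeranylated CAAX substrates, and the 10 genes lie on both sides of 0.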

How the data were processed

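The members and the gene lists were chosen with earlier results of these data known. The authors trimmed reads with fastp 0.20.1, aligned them to the mink assembly NNQGG.v01 with STAR 2.7.2a and used DESeq2 1.30.1 in R 4.0.3. The program that assigned reads to genes and its strand setting are not given in the sources used here, so counts of overlapping genes are uncertain. The deposited table holds raw counts per gene. Its 4 rows that hold totals of unassigned reads were left out of library sizes and tests (shares are given with the results). The authors' normalized files were not used, because the gene identifiers in them do not follow the order of the values.

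Here, edgeR 4.0.16 in R 4.3.3 was applied to the counts of all 6 libraries with filterByExpr (minimum count 10, minimum total 15), TMM scaling and glmQLFit (robust) with glmQLFTest, the condition being the only term. Adjustment for multiple tests followed Benjamini and Hochberg and covered every tested gene. The standard error is the size of the log2 fold change divided by the square root of F, with a median of 0.18 over the tested genes. Alternatives were DESeq2 1.42.0, limma-voom (limma 3.58.1), 3 other scalings, 2 other filters, the replicate number as a block and each library left out. All 6 pairs of libraries within a group differed by more than sampling noise. Some genes that the rule for named genes selects are not reported here. The genes named are the 10 members, the called genes of each list with the highest and lowest log2 fold changes (up to 3 each way), and the 3 genes most like the member with the smallest p. FDPS, LMNA, CHML, PTAR1, PTP4A3, the markers and the uncalled genes of the lists lie outside this rule and were chosen after their values were seen. No protein or genome sequence of the build was used, so CAAX endings were not examined. Of the 10 members, 9 were found by symbol in the RefSeq table of ASM_NN_V1, which served only to find overlapping genes.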

Additional observations from a re-analysis of the deposited data

How the results depend on the processing

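The calls of FNTA and ICMT held in all 14 alternative analyses. The number of members called higher was 2 and the number called lower 3 with DESeq2, limma-voom, each other scaling and each other filter, and with each library left out they lay between 1 and 3 and between 1 and 4. With the replicate block, 2 members were higher and 2 lower, and RABGGTA was not called (adjusted p = 0.0738). The share called over all tested genes also moved with the setting, from 47.7% in the main analysis. It was 31.85% with DESeq2, 33.6% without a filter on low counts and 44.5% with the replicate block. With a library left out, it ran from 35.9% (without control replicate 3) to 58.6% (without CD replicate 3). The correlation of deviations from the group mean between libraries of the same number was -0.024, -0.33 and -0.18. No control library correlated best with its own number. With 3 libraries in a group, these values cannot decide whether the replicate numbers pair the libraries. Values near 0 changed sign. The log2 fold change of RABGGTB was -0.021 with DESeq2, -0.056 with limma-voom, -0.016 with DESeq2 size factors, -0.0027 without a filter on low counts and -0.038 with the replicate block, and it lay between -0.35 and 0.18 with each library left out. Over the same omissions, ZMPSTE24 lay between -0.018 and 0.15, and the difference in the log2 ratio of FNTB to PGGT1B between -0.14 and 0.22. The cause was not tested. No scaling moved the median log2 fold change of the tested genes by more than 0.032. With a minimum of 50 counts in 3 libraries, CHM was not tested. The counts of CHM and PGGT1B, between 22 and 87 per library, leave the counting error of a single library wide.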

Other observations

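Prenylated proteins are carried through the cytosol by proteins that shield the lipid. Of 7 tested genes of such carriers, 4 rose in CD (edgeR), beside 24.8% higher and 22.9% lower over all tested genes, and the median log2 fold change was 0.53. None was called lower, but 1 was with DESeq2, limma-voom, scaling by total counts, and without CD replicate 2 or 3. ARL3, a GTPase that releases farnesylated cargo, was at 9.39, 12.3 and 10.1 CPM in control and at 23.9, 25.8 and 39.1 CPM in CD cells (log2 fold change 1.48, adjusted p = 3.51e-04, edgeR). PDE6D, the carrier from which it releases that cargo, rose by 0.90. Of 5 tested genes of later modification and turnover, LYPLA1, a depalmitoylating enzyme, rose (0.91) and PCYOX1L, a relative of the enzyme that degrades prenylcysteine, fell (-0.81), whereas PCYOX1 was not called (-0.33). In this list, 2 genes were called higher with upper quartile scaling, without a filter on low counts and without CD replicate 3, and 2 lower without CD replicate 1.

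ICMT had the smallest p of the 10 genes. The genes whose log2 CPM over the 6 libraries was most like that of ICMT were PADI1, ASAP3 and PCSK6, each with a Pearson r of at least 0.999, as a description over 6 points that fall into the 2 groups. A correlation above 0.95 with ICMT was found for 835 genes, or 6.87% of those tested.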
